A study of Homo sapiens with 9 samples.

Results

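The regions described here are 1454 strong ZNF395-eGFP peaks that were called in 786-O cells and in no other GFP library of the series. They were chosen by measured values: a deposited peak score of 30 or more in tagged 786-O, and no overlap, even by 1 bp, with a peak of parental 786-O, tagged A498 or parental A498. They made up 7.26% of the 20034 tagged 786-O peaks. The score is the peak caller's own, read as a −log10 of a p or q, and a peak of score 30 stood among the highest 4258 of its list. Of those 4258, 1128 lay at a peak of either parental list and were left out, among them 15 that had a parental A498 peak and no peak in the other 2 lists. The remaining 3130 divided into 1676 peaks that tagged A498 shared, called strong shared peaks here, and the 1454 that it did not. The tagged A498 list was shorter and its peaks narrower, with 7718 peaks of median width 245 bp, against 20034 of 393 bp. Of the 3130, the 786-O-only share was 61.1% (745 of 1219) at scores of 30 to 40. At scores of 100 or more it was 7.63% (19 of 249). Since score and overlap chose the regions, their scores and their absence from A498 are descriptions and not results.

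Both lines are established cell lines from clear cell renal cell carcinoma. The tagged cells carry eGFP inserted by genome editing at ZNF395, the parental cells carry no tag, and all 4 of these libraries were precipitated with the same GFP antibody. Another library holds MYC chromatin of parental 786-O. The labels do not say whether tagged cells were a clone or a pool. Each group is 1 library, so intervals cover counting error among peaks only and treat peaks as independent. Lines and target are taken from the sample titles; the A498 titles stand beside a cell line entry of 786-O, and MYC stands beside a target entry of P300, so "786-O-only" and "MYC" hold as far as the titles do.

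ZNF395 is a zinc finger protein that binds GC-rich DNA and is induced by low oxygen. Clear cell renal carcinoma typically loses VHL, which leaves hypoxia-inducible factors active, and ZNF395 is among the regulators studied in it. MYC binds DNA as a dimer with MAX, mostly at the promoters of active genes. Positions are hg19, as in the deposited lists; genes, start sites, motifs and sequences at these regions were not analysed here, because the reference tables are of another build.

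A MYC peak lay at most of the strong 786-O-only regions. It was present at 1150 of 1454 (79.1%, exact 95% interval 76.9 to 81.2) and absent at 304. Over all tagged 786-O peaks the share was 60.6%, and over all those of score 30 or more it was 84.7%. Strong shared peaks had a MYC peak in 1519 of 1676 cases (90.6%, 89.1 to 92.0), and weaker 786-O-only peaks, which meet the same overlap rule with a score under 30, in 6678 of 13148 (50.8%, 49.9 to 51.6). The strong 786-O-only regions thus stood 11.5 percentage points (9.04 to 14.1, Newcombe interval) under the strong shared peaks. MYC had no part in choosing either set.

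The highest region with a MYC peak lay on chromosome 7, 2547622 to 2548843, with a score of 179 (rank 52 of 20034), and the MYC peak inside it held rank 2103 of 20199. It was followed by chromosome 13, 76123278 to 76124203, with a score of 141, where the MYC peak was far stronger (MYC score 170, rank 306) and the midpoints lay 29 bp apart. Next came chromosome 20, 49262116 to 49262580, with a score of 136. Strong ZNF395-eGFP peaks met MYC peaks of very different rank even among these leaders. At chromosome 14, 91883669 to 91884715, a score of 103 went with MYC rank 637. At chromosome 15, 62683789 to 62684424, a score of 105 went with a MYC peak near the end of its list, of rank 18905. The remaining leaders with MYC were on chromosomes 16 (619584), 7 (120590437 and 90893434), 11 (61739120), 2 (232650896), 10 (80828405), 5 (10555559), 1 (26185522), 9 (137271789) and X (64754511), and the lowest of the 15 scored 99.0.

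Without a MYC peak, the leading region was chromosome 7, 25899886 to 25900619, with a score of 237 and rank 14, the highest of all 1454. Next were chromosome 9, 133837953 to 133838622, with a score of 140, and chromosome 1, 23888744 to 23889205, with a score of 126. Chromosome 2, 91997439 to 91997861, scored 123, and chromosome 9, 131614334 to 131614889, scored 119. Of these 15 leaders without MYC, the other 10 were on chromosomes 3 (52439007 and 52439671), 7 (134331194), 17 (37309869 and 70721620), 1 (209609062), 12 (50377729), 2 (200328024), 16 (11012603) and 18 (32870045), and the lowest scored 79.1. Regions without MYC were therefore found at the top of the ranking as well as at its end. Of the 20 highest regions 13 had a MYC peak (65.0%, 40.8 to 84.6), and of the 100 highest 72 did (72.0%, 62.1 to 80.5).

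Near the threshold both kinds were mixed. The 5 regions just inside it scored from 30.01 to 30.05; those on chromosomes 16 (12153096), 2 (57987042) and 9 (93862300) had no MYC peak, and those on chromosomes 6 (42981425) and 1 (24969565) had one. The 5 otherwise eligible peaks just outside scored from 29.87 to 29.97, with a MYC peak on chromosomes 1 (53703996), 2 (10442580) and 15 (55581819) and none on chromosomes 1 (207142472) and 17 (19266250).

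**Figure D1:**
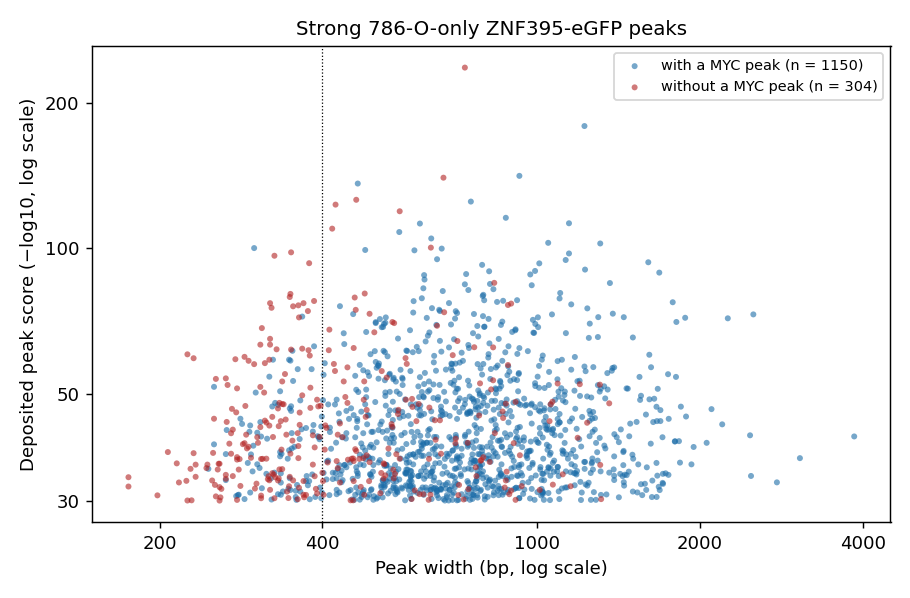
Each point is a strong 786-O-only peak, with its width in bp on a log x axis and its deposited score on a log y axis, coloured by whether a MYC peak overlaps it. Left of the dotted line at 400 bp lie 155 of the 304 points without MYC and 91 of the 1150 with MYC; at scores of 100 or more the only point left of the line has MYC.

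Regions without MYC were narrower, at a like median score. Regions with a MYC peak had a median width of 740.5 bp (quartiles 549 and 990) and those without 392 bp (quartiles 315 and 571.5). Their median scores were nearly the same, 39.6 and 39.5. Of the regions without MYC 155 of 304 (51.0%) were narrower than 400 bp, against 91 of 1150 (7.91%) of those with MYC; over all tagged 786-O peaks the share is 50.7%. A wider peak has more bases in which a 1 bp overlap can fall, so shares are given within width classes as well. Under a 50% reciprocal overlap, applied to all lists, the difference in median width of 348.5 bp was 119 bp.

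In peaks of like width the gap to the strong shared peaks was smaller. Below 400 bp, 91 of 246 strong 786-O-only regions had MYC (37.0%, 30.9 to 43.4), as did 28 of 66 strong shared peaks (42.4%, 30.3 to 55.2) and 36.9% (35.9 to 37.9) of weaker 786-O-only peaks. From 400 bp to under 600 bp the shares were 77.5% (72.8 to 81.8), 74.5% (68.1 to 80.2) and 70.7% (68.8 to 72.6). From 600 bp to under 1000 bp, the class with most 786-O-only regions (559), they were 90.2% (87.4 to 92.5), 93.4% (91.4 to 95.1) and 85.1% (83.2 to 86.7). In peaks of 1000 bp or more they were 94.97% (91.8 to 97.2), 97.5% (96.1 to 98.6) and 93.7% (91.2 to 95.7). The share was higher in each wider class in all 3 sets. The intervals of the strong 786-O-only and strong shared peaks overlapped in each of the 4 width classes, which does not show that there is no gap. In all peaks of 400 bp or more together, the difference was 4.94 points (2.72 to 7.24). At 600 to under 1000 bp with a score of 30 to 40 the intervals were apart, 90.5% (86.4 to 93.6) against 97.5% (94.3 to 99.2). They overlapped in the other classes of width and score together. With the strong shared peaks weighted to the widths of the 786-O-only regions, the difference of 11.5 points was 1.99 points.

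Within classes of score the gap stayed. Among regions scoring 30 to 40, 79.3% (76.2 to 82.2) had MYC, and among those of 60 to 100, 75.6% (68.4 to 81.9); strong shared peaks had 90.7% (87.7 to 93.2) and 90.4% (87.2 to 93.0) in the same classes. At 100 or more the gap was widest, with 12 of 19 regions (63.2%, 38.4 to 83.7) against 89.1% (84.4 to 92.8) of strong shared peaks. Weighted to the scores of the 786-O-only regions, the difference was 11.8 points. Among classes of width and score together, the regions had their lowest share under 400 bp at a score of 60 to 100. There, 3 of 25 regions had a MYC peak (12.0%, 2.55 to 31.2), against 4 of 10 strong shared peaks (12.2 to 73.8). These intervals overlapped. The 1 region under 400 bp with a score of 100 or more had MYC. Those without MYC in the class at 60 to 100 included neighbours on chromosome 3 (52438356, 52441875 and 52442396), from a run described below. The interval treats them as independent.

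**Figure D2:**
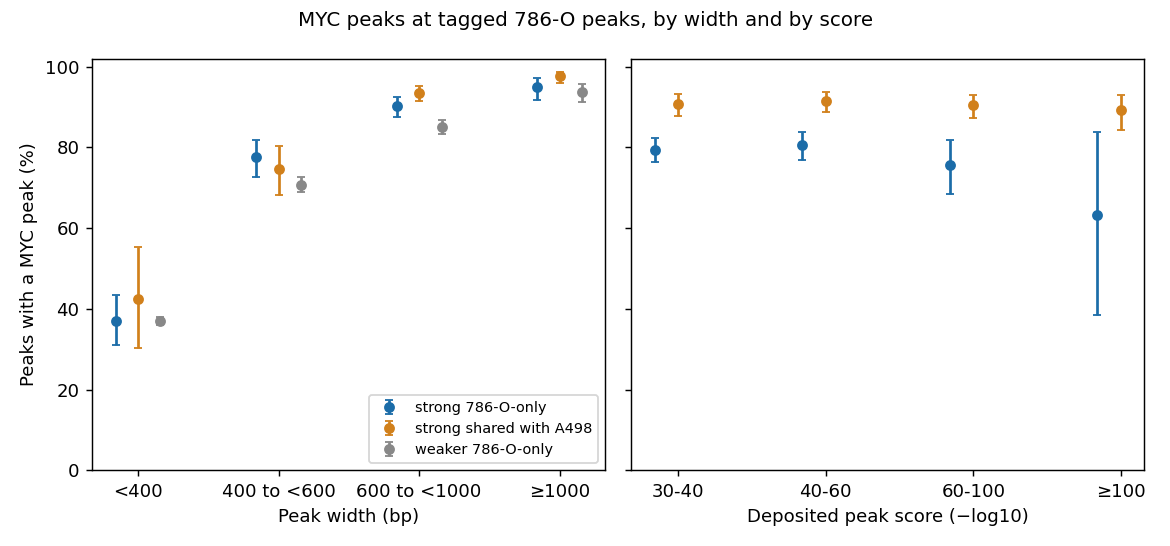
Share of peaks with a MYC peak, in percent, by peak width (left) and deposited score (right), for strong 786-O-only, strong shared and, on the left, weaker 786-O-only peaks; bars are exact 95% intervals. The sets lie close together within a width class (37.0% and 42.4% below 400 bp for the first and second set) and apart within a score class (79.3% and 90.7% at 30 to 40).

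Where the 2 factors met, the strongest MYC peak at a region had a median rank of 7477 of 20199, which is 37.0% down the MYC list. The median rank was 5663 at strong shared peaks and 8902 at weaker 786-O-only peaks. The strongest MYC peak at each of the 1150 regions had a median MYC score of 23.2 (quartiles 12.7 and 45.1), against 30.4 (16.1 and 59.8) at the strong shared peaks, a difference of 7.21. It was 19.0 at weaker 786-O-only peaks. Strong shared peaks with MYC were wider than the 1150 regions (median 932 bp against 740.5 bp), and a wider peak can meet more MYC peaks. No value at matched widths was computed, so the part of width in the difference was not tested. The difference was 7.15 when peaks under 400 bp were left out (this limit was set with the values known), and 2.69 under 50% reciprocal overlap, where its interval (−4.65 to 7.39) spans 0, against 4.05 to 11.04 for the 7.21. Read from the MYC side, the highest 10% of MYC peaks met a strong 786-O-only region in 8.07% of cases (6.92 to 9.34) and a strong shared peak in 16.04% (14.5 to 17.7). In the lowest 10% the shares were 4.11% (3.29 to 5.07) and 4.26% (3.42 to 5.23). For any tagged 786-O peak the shares were 86.4% in the highest 10% and 44.5% in the lowest. The strong 786-O-only regions cover fewer bases than the strong shared peaks (1079 kb against 1628 kb), so the levels of the 2 sets are not directly comparable. With the MYC list in 10 equal parts by score, the intervals of the 2 sets were apart in parts 1, 2 and 4 and overlapped in the other parts. As this compares those same levels, it is description only. Of all 1454 regions, those without a MYC peak included, 51.4% met a MYC peak from the upper 50% of that list.

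**Figure D3:**
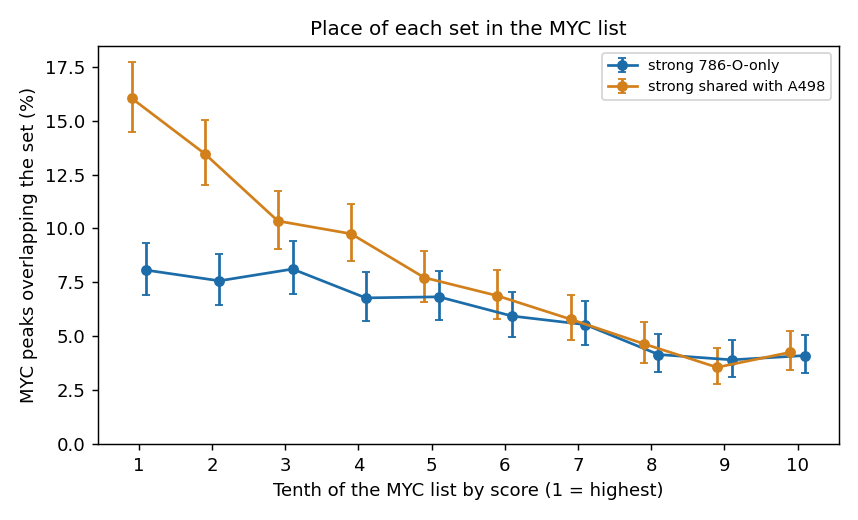
MYC peaks in 10 equal parts by MYC score (x axis, 1 the highest) and the percent of each part that overlaps a strong 786-O-only or a strong shared peak (y axis), with exact 95% intervals. Strong shared peaks fall from 16.04% to 4.26%, and strong 786-O-only peaks from 8.07% to 4.11%. Any tagged 786-O peak, not drawn, falls from 86.4% to 44.5%. The 2 sets cover 1628 kb and 1079 kb, so their levels are not directly comparable.

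Across the 1150 regions, Spearman's rho between the ZNF395-eGFP score and the MYC score was −0.02 (across peaks, which share their libraries). It was 0.03 at strong shared peaks with MYC and 0.10 at weaker 786-O-only peaks with MYC. The rule cut the ZNF395-eGFP score at 30, which limits its range, so no lack of a link is read from this. Peak widths in the 2 lists went together (rho 0.48), as they did at strong shared peaks (0.44) and, less so, at weaker 786-O-only peaks (0.27). The strongest MYC peak at any of the regions was on chromosome 17, where the region at 49243470 to 49244719 scored 69.8 and its MYC peak 323, rank 14 of the MYC list, with coincident midpoints. Others at top MYC peaks were modest in ZNF395-eGFP: chromosome 17 at 61850499 (score 32.5, MYC rank 22), chromosome 19 at 10216797 (30.7, MYC rank 26), chromosome 8 at 10696917 (37.5, MYC rank 34) and chromosome 16 at 46917840 (59.9, MYC rank 35).

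At these 1150 regions the midpoint lay a median of 94 bp (quartiles 40.1 and 181.5) from the nearest overlapping MYC midpoint. In 598 (52.0%) it lay within 100 bp, a share of 49.3% over all tagged 786-O peaks with MYC. The ZNF395-eGFP peak was the wider in 764 of 1150 (66.4%), and 83 regions spanned more than 1 MYC peak. Of the strong shared peaks with MYC, 1056 of 1519 (69.5%) were the wider, and 142 spanned more than 1. For weaker 786-O-only peaks with MYC the share was 37.3%, and 189 of 6678 spanned more than 1. The 5 widest regions all had MYC; the first was on chromosome 16 at 85644092 to 85647949 (3858 bp, score 40.8), the next on chromosome 1 at 245317187 to 245320247 (3061 bp, score 36.7), and the others on chromosomes 3 (71630501), 8 (95906718) and 6 (86351530). Short distances follow in part from choosing peaks that overlap.

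Few regions without MYC lay beside a MYC peak. Of the 304, 33 had a MYC peak within 1 kb (10.9%, 7.59 to 14.9), against 16.4% of all tagged 786-O peaks without MYC, and the median gap was 25.6 kb. The 157 strong shared peaks without MYC were similar, with 12 within 1 kb (7.64%, 4.01 to 13.0) and a median gap of 39.1 kb.

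Few of the regions were near misses of an A498 peak. A tagged A498 peak lay within 1 kb of 31 of the 1454 (2.13%, 1.45 to 3.01), against 4.23% of all tagged 786-O peaks that overlap none, and the median gap was 103 kb. The nearest was on chromosome 15, where the region at 64338616 to 64338928 (score 43.9, no MYC) ended or began 59 bp from an A498 peak. Gaps of 75, 105, 124 and 164 bp were found on chromosomes 11 (69064513 and 11862844), 3 (124605562) and 12 (122249893). A parental 786-O peak lay within 1 kb of 20 regions (1.38%, 0.842 to 2.12), close to the 1.25% (0.777 to 1.91) of strong shared peaks. Bins of 1 Mb with 10 or more parental GFP peaks, which were defined after the values were seen, held 40 of the regions (2.75%, 1.97 to 3.73), beside 2.21% (1.56 to 3.03) of strong shared peaks and 3.03% (2.75 to 3.34) of weaker 786-O-only peaks. The share of all tagged 786-O peaks, 5.06%, includes peaks at parental sites, which the rule left out, and is no comparison.

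In spacing the regions were close to the strong shared peaks. Another tagged 786-O peak lay within 10 kb of 499 (34.3%, 31.9 to 36.8), against 33.3% (31.0 to 35.6) of strong shared peaks and 42.6% of all tagged 786-O peaks. Another strong 786-O-only region lay within 10 kb of 66 (4.54%, 3.53 to 5.74), and 3.28% (2.48 to 4.25) of strong shared peaks had another of their own set as near. When regions no more than 50 kb apart were joined, 1264 stood alone, 75 pairs formed, and 12 runs had 3 or more.

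The run with the most regions lay on the short arm of chromosome 3, an arm commonly lost in clear cell carcinoma, and held 5 regions within 4.37 kb, at 52438356 (score 71.9), 52439007 (110), 52439671 (84.8), 52441875 (63.1) and 52442396 (61.8). None had a MYC peak. Around and between them the tagged 786-O list held 4 more peaks, which makes 9 peaks over 8.69 kb that together covered 67.4% of the stretch. The highest, at 52436197 to 52438016, scored 232 (rank 19) and, with that at 52440725 (score 107), was kept out of the set only by a small parental A498 peak, of score 4.04 and 5.32. The last 2, at 52443575 and 52444542, scored 16.5 and 16.4 and shared 1 MYC peak. Neither parental 786-O nor tagged A498 had a peak in the stretch or within 10 kb of the run.

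Stretches of 10 kb with 5 or more strong tagged peaks otherwise lay at parental 786-O peaks. Counting from each tagged 786-O peak, 31 such stretches were found, and the 3 without a parental 786-O peak were all this one, which reached 7 strong peaks. Outside it, no stretch free of parental 786-O peaks held more than 3. The 2 weak parental A498 peaks lie in this run, and their part in it was not tested. Nor was it tested how the run lies against the exons of a gene, or whether it marks ZNF395-eGFP on chromatin or another source of DNA from this stretch in the tagged 786-O library.

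**Figure D4:**
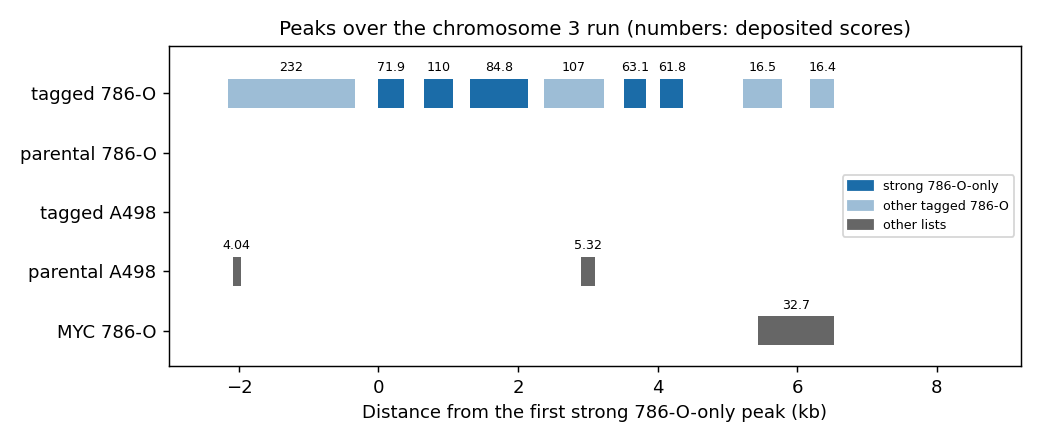
Peaks of the 5 lists over the chromosome 3 run, as bars from start to end in kb from the first strong 786-O-only peak (x axis), 1 row per list, with the deposited score above each bar. The 5 strong 786-O-only peaks (dark blue) lie as 3 and then 2 in a row, with another tagged 786-O peak (light blue) between them and others on both sides, the parental 786-O and tagged A498 rows are empty, and the MYC peak lies beyond the last of the 5.

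Most other runs held both regions with and regions without MYC. The tightest, on chromosome 1 from 17763898 to 17766521, held 3 regions within 2.62 kb, of which 2 had MYC. On chromosome 5, from 180614560 to 180650721, 4 regions scored 32.4 to 57.3 and 1 had MYC. On chromosome 1, from 1590250 to 1678033, 4 regions scored 36.2 to 54.7 and 3 had MYC. Each of the 2 strongest regions was part of a run of 3 on chromosome 7. The region scoring 237 closed a run from 25891378 to 25900619 whose others scored 35.6 and 53.9, and the region scoring 179 opened a run from 2547622 to 2563875 whose others scored 60.9 and 47.0. The remaining runs of 3 were on chromosomes 2 (200320467), 3 (183966516), 7 (27190210), 14 (54863261 and 89017729) and 19 (12888389). The narrowest regions, 2 of 175 bp, lay on chromosome 1 at 29262 (score 32.1) and on chromosome 15 at 102501633 (score 33.5), both without MYC.

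The balance of 786-O-only and shared peaks differed between chromosomes. Over chromosomes 1 to 22 and X, 46.4% (44.7 to 48.2) of the 3128 strong peaks at neither parental list were 786-O-only. On chromosome 18 it was 32 of 50 (64.0%, 49.2 to 77.1), on chromosome 14, which is often lost in clear cell carcinoma, 53 of 88 (60.2%, 49.2 to 70.5), and on chromosome 1, 188 of 343 (54.8%, 49.4 to 60.2). The lowest shares were 9 of 27 on chromosome 21 (33.3%, 16.5 to 54.0), 51 of 148 on chromosome 9 (34.5%, 26.8 to 42.7) and 67 of 186 on chromosome 17 (36.0%, 29.1 to 43.4). The intervals of chromosomes 18, 14 and 1 lay above the value for all chromosomes, those of 9, 17 and 7 (39.0%, 32.5 to 45.8) below it. The intervals of the 23 chromosomes were not adjusted for their number and treat peaks as independent.

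Beside these shares stands the number of A498 peaks that the chromosome held outside the sites of the other GFP lists. They numbered 0.658 per 100 tagged 786-O peaks on chromosome 18, 1.69 on chromosome 14 and 37.0 on chromosome 7, and 16.2 over all. Chromosome X had 56.6% 786-O-only (42.3 to 70.2) and 25.6 A498 peaks per 100. Both values come from the tagged A498 list, which the rule used, so that a link between them is partly fixed by the rule and nothing is read from it. The sequencing depth and the DNA copy number of each chromosome in each line are not in the peak lists, so lack of ZNF395 on a chromosome and weak detection there cannot be told apart.

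**Figure D5:**
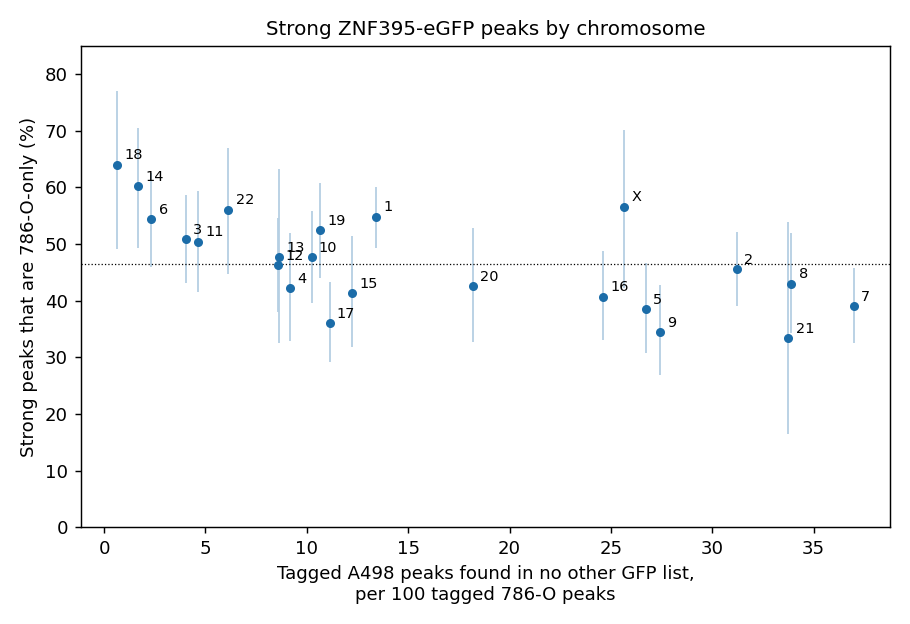
Each point is a chromosome: tagged A498 peaks found in no other GFP list, per 100 tagged 786-O peaks (x axis), against the percent of strong peaks at neither parental list that are 786-O-only (y axis, exact 95% intervals; dotted line, all chromosomes). Chromosomes 18 and 14 lie at the upper left, with 64.0% and 60.2%, and chromosomes 7 and 21 at the lower right, with 39.0% and 33.3%. Both axes use the tagged A498 list, so a link between them is partly fixed by the rule and nothing is read from it.

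On chromosome 1 the surplus lay at the start. Stretches of 20 Mb were examined after the chromosome values were seen, and the first held 46 786-O-only and 15 shared strong peaks (75.4%, 62.7 to 85.5), the highest share of the 61 stretches with 20 or more strong peaks. The second held 34 of 55 (61.8%, 47.7 to 74.6). From 40 Mb on, chromosome 1 had 108 of 227 (47.6%, 40.9 to 54.3), close to the value for all chromosomes. A498 peaks outside the other GFP lists numbered 3.87 per 100 tagged 786-O peaks in the first 40 Mb and 17.5 in the rest. That count and the 786-O-only share both use the tagged A498 list, so nothing is read from their link here either. Of the 46 regions in the first 20 Mb 39 had a MYC peak (84.8%, 71.1 to 93.7), and the highest, at 7325870 to 7326484, scored 82.6. Other stretches whose interval lay above the value for all chromosomes were the first 20 Mb of chromosome 19 (52 of 86, 60.5%, 49.3 to 70.8) and chromosome 22 from 20 to 40 Mb (28 of 45, 62.2%, 46.5 to 76.2). Below it were chromosome 16 from 20 to 40 Mb (6 of 26, 23.1%), chromosome 20 from 20 to 40 Mb (9 of 38, 23.7%), the first 20 Mb of chromosome 17 (10 of 38, 26.3%), chromosome 8 from 140 Mb on (8 of 30, 26.7%) and chromosome 1 from 220 to 240 Mb (10 of 35, 28.6%). The 61 intervals were not adjusted for their number.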

How the data were processed

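ChIP-seq peak lists of 5 libraries were used; the 4 input samples have no list here. Fixation was in 1% formaldehyde, and sequencing aimed at an average of 30 to 50 M reads, per the labels' protocols; per the submitters' processing notes BWA, MACS2 and hg19 were used, with roles and settings not given in the sources used here. Peak names in the deposited lists show 1 control library per call, the same one for MYC and parental 786-O. The deposited score was read as −log10 of a p or q, because each list begins just above 2, and was compared only within its list. No list gives counts, so depth at a peak is unknown.

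Overlaps (1 bp), gaps, exact binomial (Clopper-Pearson) 95% intervals and medians were computed with Python 3.11.15, numpy 2.4.6, pandas 2.3.3 and scipy 1.17.1, and plotted with matplotlib 3.10.9. Differences of shares have Newcombe intervals. Bounds for differences of medians pair opposite ends of the 2 medians' own 95% intervals, and are wider than a 95% interval. Overlaps were tested on simulated data and differed from bedtools 2.31.1 at 0 of 20034 peaks for each list. With 1 library per group there is no p-value. The members and comparisons were chosen with earlier results of these data known. Regions were named by rule: the 15 highest with and without MYC, 5 around the threshold on each side, 5 by MYC score, width and gap to A498, and runs joined at 50 kb; the narrowest pair, the chromosome 3 neighbours and the stretches of 20 Mb were chosen after their values were seen. Groups follow the sample titles. Start sites, gene lists and motifs, planned for an hg19 reference, were not analysed here.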

Additional observations from a re-analysis of the deposited data

How the results depend on the processing

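The count of 1454 regions was 361 at a score of 50 or more, 3149 at 20 or more and 3304 when sharing required 50% reciprocal overlap, which removes fewer peaks by construction; under the other alternatives run it stayed within 1.5 times. The share with MYC (79.1%) was 76.3% at a score of 20 or more, 66.5% with reciprocal overlap, 60.3% with midpoints within 200 bp, 51.4% with the upper 50% of MYC peaks and 87.7% in peaks of 400 bp or more. The difference from strong shared peaks (11.5 points) was 14.3 at a score of 20 or more, 16.1 with the upper 50% of MYC peaks, 1.99 weighted by width and 4.94 in peaks of 400 bp or more. With reciprocal overlap the width difference was 119 bp and the MYC score difference 2.69, whose interval (−4.65 to 7.39) spans 0. The share with an A498 peak within 1 kb was 1.11% at a score of 50 or more. The cause of these moves was not tested. No value changed sign. Removing peaks within 1 kb of A498 or parental peaks, the widest 1% or the parental subtraction was run only for the count, the share with MYC and its difference. Removing unplaced contigs and chromosome Y was run for these and for the width and MYC score differences. Removing bins dense in parental peaks was run for all values. Each of these alternatives left the shares and differences it was run for within their intervals. The other values were not computed under them. The settings of 400 bp and of dense bins were added after the data were seen. Alternatives that need start sites were not run. No paired analysis was possible because each group is 1 library and no result comes from a test across replicates. The lists give no reads, so a peak missing from A498 cannot be told from one under its threshold.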
